A study of Homo sapiens with 4 samples.

Results

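The 10 genes DUSP4, DUSP5, DUSP6, SPRY1, SPRY2, SPRED1, SPRED2, ETV4, ETV5 and PHLDA1 are genes that ERK signalling is known to induce, and most of them encode proteins that restrain or transmit it. They were taken by symbol from a table of 25066 genes measured by RNA sequencing, and all 10 had an entry. They were chosen by their log2 difference between the genotypes, which was already known, with DUSP6 among its largest rises, so their differences are given as a description and without a test. Of the 10, 9 entered the comparison of 16945 genes whose value exceeded 0, the bottom of the scale, in 2 or more of the 4 libraries, and SPRY2 did not.

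All libraries came from NUDUL1, a human line of diffuse large B cell lymphoma of the germinal center type. The cells came from a clone with doxycycline-inducible Cas9 and had been transduced with Tbxa2r, the thromboxane receptor, which signals through Gα13, the product of GNA13. Cells with a control sgRNA and cells with a GNA13 sgRNA, 1 guide for each genotype, were all given U46619, a stable thromboxane mimetic, at 10 nM for 24 h, with 2 libraries per genotype. Untreated cells were not among the samples, so the comparison is between genotypes under stimulation, and the question it addresses is how Gα13 signalling alters expression. The cells were treated in duplicate, nothing further says whether the replicates were separate cultures, and p values therefore measure only the spread between these libraries. Because whole cultures were sequenced, fewer cells expressing a gene and less RNA per cell cannot be told apart.

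ERK is the last kinase of a cascade that runs from RAS through RAF and MEK, and in B cells it is switched on by the antigen receptor and by other receptors at the surface. Active ERK raises the transcription of its own inhibitors, among them the DUSP phosphatases that strip phosphate from MAP kinases and the Sprouty and SPRED proteins that act at the level of receptors and RAS. It also releases PEA3 ETS factors and several of these inhibitors from Capicua, a repressor that ERK signalling inactivates. For this reason the transcripts are widely used as a readout of ERK pathway output, although several are also controlled by other pathways.

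The 4 libraries held between 29209544 and 31537955 mapped reads. Values are log2 normalized reads as the authors deposited them, with 0 as the lowest listed value, and the number of reads behind a low value could be read back from the steps of the scale. The mRNA of the targeted gene was higher, not lower, under the GNA13-deficient label. GNA13 (Entrez 10672) stood at 12.46 and 12.45 on the log2 scale in control cells and at 13.10 and 13.11 in cells labelled GNA13-deficient, a difference of 0.65 (SE 0.05, n = 2 libraries per genotype, limma with Benjamini-Hochberg adjustment, adjusted p = 0.0021). Its mRNA was therefore not lower where the label gives a deficiency, and each direction below rests on the labels. Only mRNA was measured in these libraries, and whether the Gα13 protein was lost cannot be read from it. All 8 B cell markers examined were well expressed in every library, at log2 values between 8.23 and 14.33, which matches the labelled cell type. Within them BCL6, a germinal center transcription factor, was lower by limma in libraries labelled GNA13-deficient (log2 difference -2.49, adjusted p = 0.00085), and MS4A1 was lower as well. Of 5 T cell markers, CD2, CD3D and CD3E were at 0 in all libraries, CD3G had at most 1 read, and CD8A had 5 and 5 reads against 0 and 0 (limma adjusted p = 0.0101), so that the list summed to 5 and 5 reads against 1 and 0. The 5 myeloid markers summed to 224 and 246 reads in the control libraries, most of them from ITGAM and LYZ, and to 28 and 25 in the others, while CD14 and FCGR1A had between 0 and 2 reads. The 5 epithelial and stromal markers summed to 45 and 50 reads against 104 and 105, most of them from EPCAM, with KRT8 and KRT18 at 0 throughout. The sums of these 3 lists moved with the genotype, and their part in the results was not tested.

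**Figure D1:**
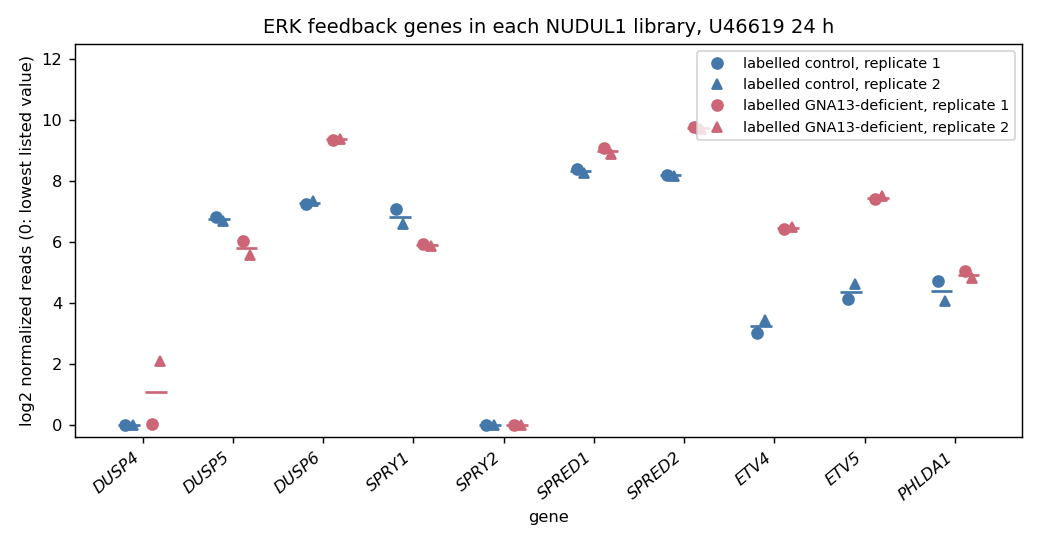
Log2 normalized reads (vertical axis) of the 10 ERK feedback genes (horizontal axis) in each library, with control libraries in blue, libraries labelled GNA13-deficient in red, replicate 1 as circles, replicate 2 as triangles and the group mean as a bar. DUSP6, SPRED1, SPRED2, ETV4 and ETV5 lie higher in both libraries labelled GNA13-deficient, DUSP5 and SPRY1 lie lower, and SPRY2 is at 0 in all 4.

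The feedback genes did not move as a block. ETV4, ETV5, DUSP6, SPRED2 and SPRED1 were higher in libraries labelled GNA13-deficient, and DUSP5 and SPRY1 were lower. PHLDA1 differed by less than its control replicates did, and DUSP4 and SPRY2 were hardly detected. In the limma fit, which the choice of the genes drew on, 5 of the 9 had an adjusted p under 0.05 and were higher, where 13.1% of all genes tested were, and 2 were lower, where 16.6% were. The 8 of them above the floor of 3 reads had no overlap between the genotypes, as did 65.3% of all genes tested. DUSP4, at the floor, was tested only through the libraries labelled GNA13-deficient, with 0 and 0 reads against 1 and 4. Its listed values did not overlap either, by a gap of 0.04 that cannot be taken as a separation. Over the 8 genes above the floor the median log2 difference was 1.11, against -0.02 over all genes tested. Over all 9 it was 1.07, which is the value of DUSP4 itself and so rests on a gene at the floor. These counts follow from the choice of genes and nothing is read from them. DUSP6, SPRED1 and SPRED2 kept their direction under all 14 alternative settings of the fit, and the other 5 genes above the floor did so under each setting that left them in, since a filter at the median of the means removed them.

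The phosphatase DUSP6 (Entrez 1848), which resides in the cytoplasm and is highly selective for ERK, lies at chr12:89741012-89746278 on the minus strand of GRCh37 (hg19). Of the 10 genes, DUSP6, SPRY1, SPRY2, SPRED1, SPRED2 and PHLDA1 have promoter windows, 10 in all, in the RefSeq table for GRCh38.p14, which takes 250 bases before to 50 after a transcription start. DUSP4, DUSP5, ETV4 and ETV5 do not. The windows were searched on both strands for the Capicua octamers TGAATGAA, TGAATGGA, TCAATGAA and TCAATGGA, the ETS motif CCGGAAGT, the AP-1 motif TGANTCA and the CRE motif TGACGTCA. None of these motifs contains another. The stretch of it shown here, chr12:89352482-89352621 on the minus strand of GRCh38.p14, is printed because it was the only one of the 10 windows with a Capicua octamer. It held no match to the other motifs, and the capitals mark its 2 octamers, both the reverse complement of TCAATGGA.
DUSP6: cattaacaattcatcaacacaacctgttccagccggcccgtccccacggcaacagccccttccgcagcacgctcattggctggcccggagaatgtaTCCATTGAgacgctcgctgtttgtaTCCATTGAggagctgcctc
With the start counted as base 1, the matches begin at bases -24 and 2. Of all 35116 windows in the table, 3.77% held at least 1 such octamer and 0.328% held 2 or more. The windows of the other RAS-ERK pathway genes listed held at least 1 in 12 of 137 (8.76%), among them windows of CIC, ATXN1, ETV1, SPRY3, SPRED3 and DUSP10. A match describes letters only and is not evidence of binding.

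DUSP6 read 7.24 and 7.33 (log2) in the control libraries, from 148 and 164 reads, and 9.34 and 9.39 in libraries labelled GNA13-deficient, from 631 and 624 reads. The genotypes were far apart, with a gap of 2.00 between the nearest libraries, 20.3 times the larger difference between replicates. The log2 difference was 2.08 (SE 0.10, n = 2 per genotype), or 4.23-fold. It ranked 114 among the rises of all 16945 genes tested, many of which had few reads, and 4 among the 8473 genes in the upper part of the range of mean values. DUSP6 reached that upper part only through the libraries labelled GNA13-deficient, since its control mean of 7.28 was below the median of 8.13. Both ranks follow from the choice of the gene, and nothing is read from them. A lncRNA on the opposite strand, ENSG00000274021, shares 1105 of the 3859 exon bases of DUSP6. The library kit marked strand, but whether the counting used it is not given in the sources used here.

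DUSP5 (Entrez 1847, chr10:112257665-112271291, plus strand), a nuclear phosphatase selective for ERK, ran the other way. It read 6.82 and 6.71 (log2) in the control libraries, from 111 and 106 reads, and 6.04 and 5.57 in libraries labelled GNA13-deficient, from 64 and 44 reads. Both of the latter were below both controls, by a gap of 0.67 that was 1.42 times the larger replicate difference. The log2 difference was -0.96 (SE 0.24), a 1.95-fold lower level, and with quantile normalization it was -0.54. GENCODE lists the processed pseudogenes DUSP5P1 and DUSP5P2, with which reads could be split. DUSP5P, the pseudogene entry in the table, had 18 and 10 reads in the control libraries and 5 and 1 in the others.

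DUSP4 (Entrez 1846), a nuclear phosphatase of several MAP kinases, was at or near the floor. It was listed at 0 in both control libraries and had 1 and 4 reads in libraries labelled GNA13-deficient, so no fold is given. In control replicate 2 no gene was found at 1 read, since 1 read lies below 0 on that library's scale, and a listed 0 there can stand for 1 read.

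The other MAP kinase phosphatases were listed by family, although with earlier results of these data known, and were tested. Of these 7, 1 was higher by limma, 2 were lower and 4 did not pass. Over all genes tested, 13.1% were higher and 16.6% lower. DUSP1, a nuclear phosphatase induced by stress and growth signals, was at 8.11 and 8.09 against 8.63 and 8.59 (difference 0.51, SE 0.09, limma adjusted p = 0.0161). DUSP16, which acts mainly on JNK and p38 kinases, was at 6.97 and 6.87 against 4.56 and 4.43 (difference -2.43, SE 0.23, limma adjusted p = 0.00313). Reads of DUSP16 went from 123 and 119 to 23 and 20. DUSP8, of the same group, had 12 and 16 reads against 5 and 2 (difference -2.06, SE 0.55, limma adjusted p = 0.047), and its difference was -0.82 with a pseudocount of 10. DUSP7, the closest relative of DUSP6, was at 6.97 and 7.26 against 7.71 and 7.65, and DUSP2 was at 6.96 and 7.04 against 7.56 and 7.45. Their differences of 0.57 and 0.51 missed the threshold (limma adjusted p = 0.0542 and 0.0522) and passed it with pseudocounts of 1 and 10, quantile normalization and median centring, among others. DUSP10 had a difference of -0.41 and DUSP9, with 2 to 6 reads, of 0.66, and neither passed (limma adjusted p = 0.122 and 0.448). The DUSP10 difference was 0.01 with quantile normalization.

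**Figure D2:**
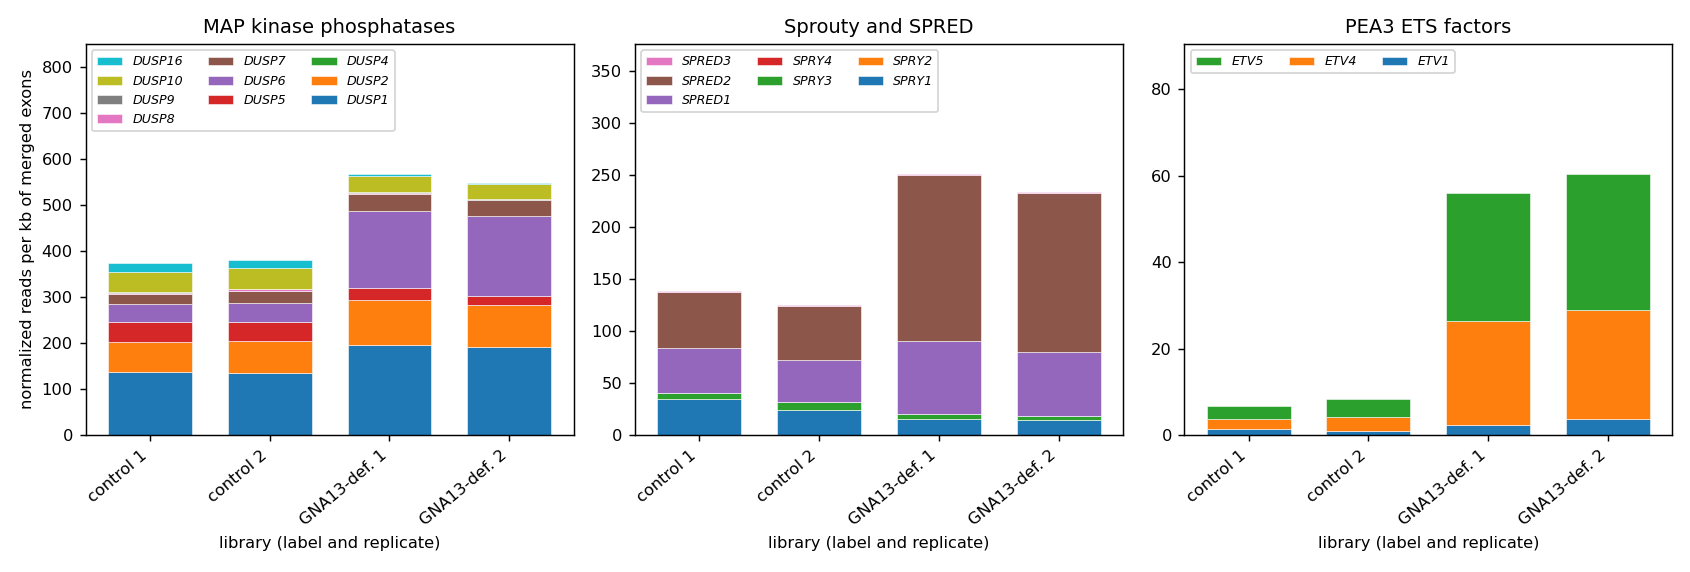
Normalized reads per kb of merged exons (vertical axes) of the MAP kinase phosphatases, the Sprouty and SPRED genes and the PEA3 ETS factors in each library (horizontal axes), stacked by gene. The DUSP6 segment grows from 39.0 and 41.8 to 168 and 174, the SPRED2 segment from 53.8 and 52.4 to 160 and 153, and the PEA3 sum from 6.80 and 8.36 to 56.0 and 60.3.

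Levels were compared between genes as normalized reads per kb of merged exons, which allows for gene length. The 10 phosphatases summed to 373 and 381 in the control libraries and to 567 and 549 in libraries labelled GNA13-deficient. DUSP1 was the most abundant in every library. DUSP6 took 10.5% and 11.0% of the family sum in the controls, where it ranked 5 and 4 and lay close to DUSP5 and DUSP10. In the libraries labelled GNA13-deficient it took 29.6% and 31.7% and ranked 2, below DUSP1 at 196 and 191 per kb and above DUSP2 at 97.9 and 90.9. DUSP5 went from 11.9% and 10.8% to 4.57% and 3.40%. Per kb, DUSP5 stood at 44.5 and 41.2 beside DUSP6 at 39.0 and 41.8 in the controls, and at 25.9 and 18.7 below DUSP6 at 168 and 174 in the other libraries.

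SPRED2 (Entrez 200734, chr2:65537985-65659771, minus strand of GRCh37) encodes a membrane-anchored inhibitor that brings neurofibromin to RAS. It has 2 RefSeq windows, at an upstream and at an internal start. They are shown because the internal one was the only one of the 10 windows with an AP-1 match, in capitals. The coordinates, on the minus strand of GRCh38.p14, are chr2:65432580-65432719 for the upstream start and chr2:65366759-65366898 for the internal start.
SPRED2 upstream start: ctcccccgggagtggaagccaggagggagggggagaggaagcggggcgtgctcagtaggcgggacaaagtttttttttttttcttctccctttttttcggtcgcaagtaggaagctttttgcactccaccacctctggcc
SPRED2 internal start: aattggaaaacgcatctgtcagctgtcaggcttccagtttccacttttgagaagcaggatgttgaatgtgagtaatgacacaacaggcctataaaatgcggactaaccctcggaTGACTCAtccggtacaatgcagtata
The match TGACTCA begins at base -6, and TGAATCA follows at base 35, beyond the stretch shown. An AP-1 match was present in 7.71% of all windows, an ETS match in 4.14% and a CRE match in 1.85%, and the windows of the ERK feedback genes held neither of the last pair. The values are per gene, so which start was used was not measured.

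SPRED2 read 8.21 and 8.17 (log2) in the control libraries, from 291 and 293 reads, and 9.78 and 9.72 in libraries labelled GNA13-deficient, from 856 and 783 reads. The libraries of each genotype lay almost on top of each other, and the gap of 1.51 between genotypes was 24.7 times the larger replicate difference. The log2 difference was 1.56 (SE 0.08), or 2.94-fold, and ranked 12 among the rises of the 8473 genes in the upper part of the range.

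SPRED1 (Entrez 161742, chr15:38545037-38649450, plus strand), which also recruits neurofibromin, moved the same way by less. It had 8.38 and 8.28 in the control libraries, from 328 and 316 reads, and 9.08 and 8.90 in libraries labelled GNA13-deficient, from 527 and 445 reads. The genotypes did not overlap, with a gap 2.95 times the larger replicate difference, and the log2 difference was 0.66 (SE 0.10), or 1.58-fold.

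SPRY1 (Entrez 10252, chr4:124317950-124324915, plus strand), a Sprouty inhibitor of receptor signalling to RAS, was lower. It had 7.09 and 6.58 in the control libraries, from 134 and 97 reads, and 5.94 and 5.86 in libraries labelled GNA13-deficient, from 60 and 54 reads. The controls differed from each other by 0.51, and the gap between genotypes, 0.63, was 1.23 times that. The log2 difference was -0.93 (SE 0.25), 1.91-fold lower, and with quantile normalization it was -0.52.

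SPRY2 (Entrez 10253, chr13:80910111-80915261, minus strand), a common ERK readout in other cells, was listed at 0 in all 4 libraries. In control replicate 2 a listed 0 can stand for 1 read, and a count of 0 does not exclude a low level of the transcript. SPRY4 was listed at 0 in both control libraries, where 0 in control replicate 2 can again stand for 1 read, and had 1 read in each of the others. Of the 3 Sprouty and SPRED genes outside the chosen set, none passed limma's test. SPRY3 was at 5.93 and 6.39 against 5.62 and 5.15 (difference -0.77, SE 0.30, adjusted p = 0.123), and SPRED3 had 2 to 7 reads.

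Per kb of exons, the 7 Sprouty and SPRED genes summed to 138 and 125 in the control libraries and 251 and 234 in the others. SPRED2 was the most abundant in all 4 libraries, with 38.9% and 41.9% of the sum in the controls and 63.7% and 65.5% in libraries labelled GNA13-deficient. SPRY1 went from 24.9% and 19.3% to 6.20% and 6.27%. SPRED1 stayed in the place below SPRED2 throughout, with between 26.4% and 32.1%.

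ETV4 (Entrez 2118, chr17:41605212-41656988, minus strand) and ETV5 (Entrez 2119, chr3:185764103-185828107, minus strand) are PEA3 ETS factors, transcription factors that carry out part of the ERK response and are direct targets of Capicua repression in many tissues. ETV4 read 3.02 and 3.44 (log2) in the control libraries, from 8 and 11 reads, and 6.41 and 6.48 in libraries labelled GNA13-deficient, from 83 and 83 reads. ETV5 had 4.11 and 4.62, from 17 and 25 reads, against 7.41 and 7.50, from 166 and 168 reads. Both were near the bottom of the measurable range in the controls and tightly paired in the other libraries. The log2 difference was 3.22 (SE 0.31) for ETV4, or 9.29-fold, and 3.09 (SE 0.27) for ETV5, or 8.51-fold. These ranked 9 and 13 among the rises of all 16945 genes tested. Set against the larger replicate difference, the gap between the nearest libraries was 7.24 times as wide for ETV4 and 5.51 times for ETV5. With a pseudocount of 10, which damps low genes, the differences were 2.32 and 2.59. Of their exon bases, 68 of 3515 in ETV4 are shared with DHX8 on the opposite strand and 164 of 5773 in ETV5 with DGKG on the same strand.

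**Figure D3:**
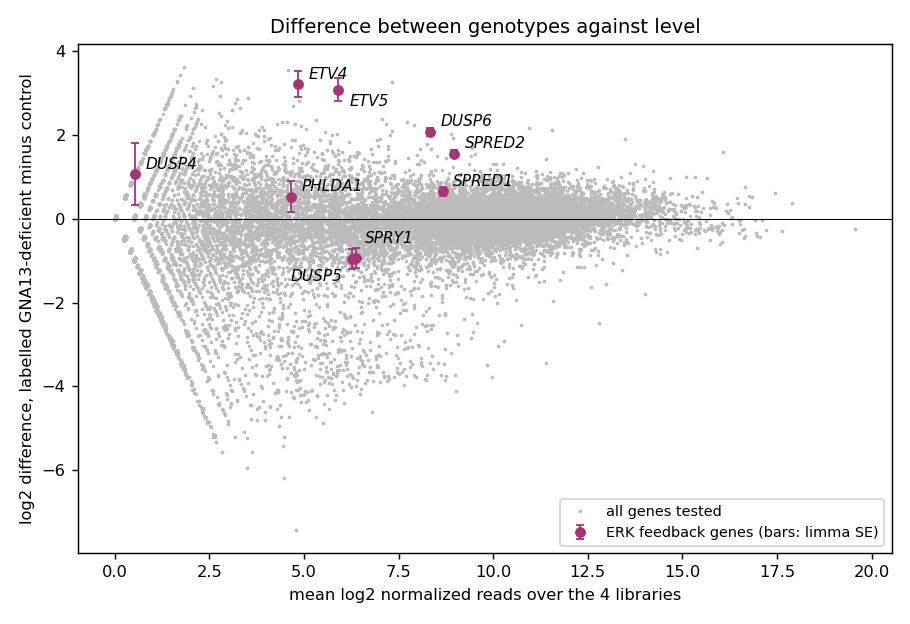
Log2 difference, libraries labelled GNA13-deficient minus control (vertical axis), against the mean log2 normalized reads of the 4 libraries (horizontal axis), with all 16945 genes tested in grey and the 9 ERK feedback genes tested in purple with limma standard errors. ETV4 and ETV5 lie at 3.22 and 3.09 among genes of low to middle level, DUSP6 and SPRED2 at 2.08 and 1.56 among better read genes, and DUSP5 and SPRY1 side by side at -0.96 and -0.93.

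ETV1, the remaining PEA3 factor, had 14 and 10 reads against 21 and 32, a log2 difference of 1.20 (SE 0.42, limma adjusted p = 0.0924) that passed the threshold only with quantile normalization. Per kb, the PEA3 factors summed to 6.80 and 8.36 in the controls and to 56.0 and 60.3 in libraries labelled GNA13-deficient. The order was ETV5, ETV4, ETV1 in every library. ETV4 and ETV5 lay close together, at 24.2 and 25.4 against 29.5 and 31.3 per kb in libraries labelled GNA13-deficient. Even there each was well below DUSP6 and SPRED2 per kb.

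PHLDA1 (Entrez 22822, chr12:76419227-76425556, minus strand) encodes a pleckstrin homology-like protein that growth factors and ERK induce. It read 4.73 and 4.06 (log2) in the control libraries, from 26 and 17 reads, and 5.04 and 4.81 in libraries labelled GNA13-deficient, from 32 and 26 reads. The controls differed by 0.66, and the gap between genotypes was 0.08, so the difference of 0.53 (SE 0.37) was within the spread of the controls. It was 0.20 without control replicate 2 and 0.86 without control replicate 1, and 0.97 with quantile normalization. PHLDA1-AS1, on the opposite strand, shares 553 of its 5913 exon bases.

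The rest of the pathway gives the setting for these genes. Of 102 other RAS-ERK pathway genes listed, 90 were tested, and 15 were higher and 20 lower by limma, against 13.1% and 16.6% of all genes. Their median log2 difference was 0.05, against -0.02 over all genes tested. The split depended on scaling, since centring each library on its median made 28 of them higher. With any 1 library left out no gene in the whole table passed, the smallest adjusted p being 0.0708 to 0.079, so such fits say nothing of single calls.

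**Figure D4:**
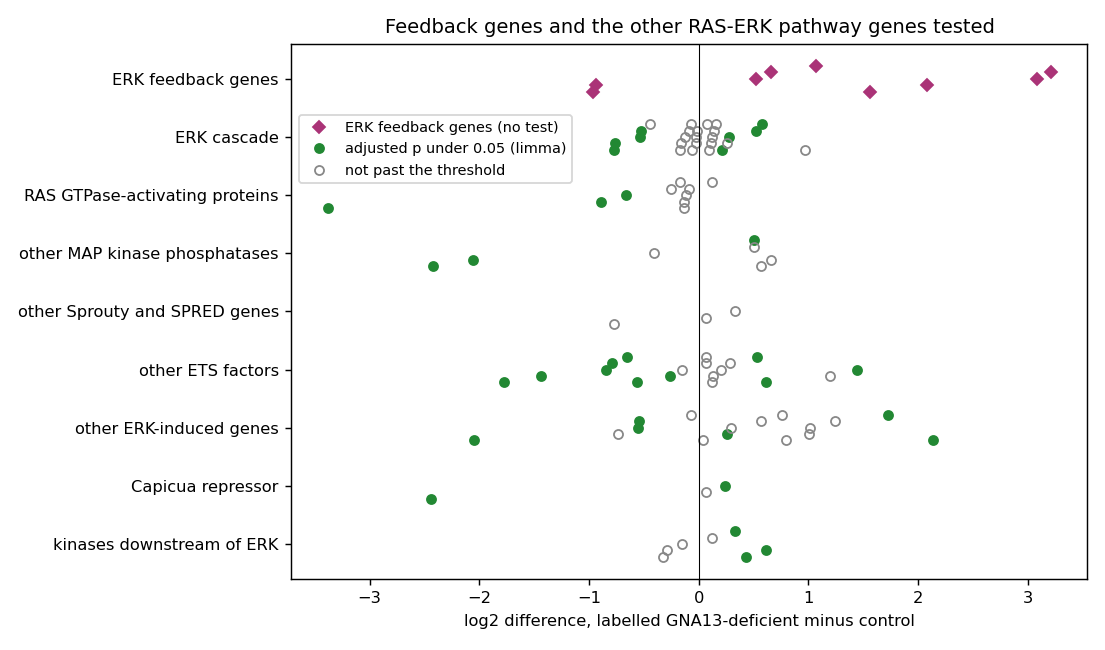
Log2 difference, libraries labelled GNA13-deficient minus control (horizontal axis), of the 9 ERK feedback genes tested (purple diamonds) and of the 90 other pathway genes tested, by list (vertical axis), with filled circles for an adjusted p under 0.05 and open circles for the rest. Most genes of the cascade lie near 0. Of the feedback genes, which were chosen by this difference, ETV4, ETV5, DUSP6 and SPRED2 lie at 1.56 or higher and DUSP5 and SPRY1 at -0.96 and -0.93. Other lists also hold genes far from 0, among them FOSL1 at 1.73 and DUSP16 at -2.43.

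The cascade itself showed no common direction. Of 26 tested genes from adaptors to ERK, 4 were higher and 4 lower, with a median of -0.02. The shares over all genes tested were 13.1% and 16.6%. MAPK3, which encodes ERK1, was at 8.80 and 9.14 against 9.46 and 9.62 (difference 0.57, SE 0.14, limma adjusted p = 0.0354). MAP2K1, encoding the ERK kinase MEK1, was lower, at 10.83 and 10.81 against 10.01 and 10.10 (difference -0.76, SE 0.06, limma adjusted p = 0.00221). MAP2K2 differed by -0.09, between replicates that overlapped, and by 0.12 with median centring. HRAS rose by 0.52 (SE 0.10, limma adjusted p = 0.0179), and the RAS exchange factor RASGRP3 fell by 0.77 (SE 0.13, limma adjusted p = 0.0125).

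Among 10 GTPase-activating proteins that switch RAS off, 3 were lower and none higher by limma, against 16.6% and 13.1% of all genes tested. RASAL2 had 6 and 20 reads in the controls and 1 and 1 in the others. NF1, the neurofibromin that SPRED proteins recruit, differed by -0.08 with overlapping genotypes (limma adjusted p = 0.607), and its sign changed with median centring. Of 7 kinases downstream of ERK, 3 were higher and none lower, against 13.1% and 16.6% of all genes tested. RPS6KA3, encoding RSK2, rose by 0.61 (SE 0.07, limma adjusted p = 0.00417) and RPS6KA5, encoding MSK1, by 0.43 (SE 0.11, limma adjusted p = 0.0387).

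Of the 3 genes of the Capicua repressor complex, CIC was at 10.75 and 10.76 against 11.04 and 10.96 (difference 0.24, SE 0.06, limma adjusted p = 0.0339). ATXN1, a partner protein of Capicua, was lower, with 78 and 75 reads in the control libraries and 15 and 12 in libraries labelled GNA13-deficient (difference -2.44, SE 0.28, limma adjusted p = 0.00493). ATXN1L, the remaining gene of the 3, was at 10.37 and 10.35 against 10.61 and 10.26, with overlapping genotypes (difference 0.07, SE 0.13, limma adjusted p = 0.72). Per kb of exons ATXN1L averaged 141 in the control libraries, where ATXN1 averaged 3.97. The CIC call was lost without the filter on low values, without the variance trend and with voom weights, and the ATXN1 call held in each of these.

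Other ETS factors did not follow ETV4 and ETV5 as a group. Of 18 tested, 3 were higher and 7 lower, with a median of 0.06, and 8 more were not tested. Over all genes tested, 13.1% were higher and 16.6% lower. ETS2, itself a target and effector of ERK, rose from 8.10 and 7.98 to 9.56 and 9.41 (difference 1.45, SE 0.10, limma adjusted p = 0.00175), and ELF4 rose by 0.61 (SE 0.06, limma adjusted p = 0.00326). ELK3, a ternary complex factor that partners SRF, fell from 8.79 and 8.87 to 7.33 and 7.45 (difference -1.44, SE 0.11, limma adjusted p = 0.00205). ELF3, also among the 7 lower, had 3 and 4 reads in the controls and 1 and 0 in the others. Its call was lost with pseudocounts of 1 and 10, quantile normalization, the robust prior and voom weights.

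Of 16 other genes tested that ERK is known to induce, 3 were higher and 3 lower by limma, where 13.1% and 16.6% of all genes were. Their median log2 difference was 0.43, against -0.02 over all genes tested. It lay between the values of EGR1 (0.29) and LIF (0.57). LIF had 0 and 0 reads against 2 and 1, and it was tested only through the libraries labelled GNA13-deficient. The median therefore rests in part on a gene at the floor, and nothing is read from it. FOSL1, a late AP-1 subunit, had 19 and 14 reads against 53 and 50 (difference 1.73, SE 0.32, limma adjusted p = 0.0173). FOS, an immediate early gene, had 1 and 2 reads against 7 and 5. PLAUR, the urokinase receptor, went the other way, with 41 and 48 reads against 8 and 13 (difference -2.05, SE 0.39, limma adjusted p = 0.0192). MYC fell by 0.55 (SE 0.06, limma adjusted p = 0.00358), from 13.79 and 13.77 to 13.22 and 13.23. The calls for MAPK3, HRAS, RASGRP3, RPS6KA5, DUSP8, FOSL1, PLAUR, RASAL2 and FOS were lost without the filter on low values. Those for MAPK3, HRAS, RASGRP3, RPS6KA5, DUSP8, RASAL2 and FOS were also lost without the variance trend, and those for DUSP8, RASAL2 and FOS with voom weights. The DUSP8 call was further lost with quantile normalization and with median centring, the RASAL2 call with a pseudocount of 10 and the FOS call with a pseudocount of 1.

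The genes whose pattern was most like that of DUSP6 were found by the distance between profiles over the 4 libraries, each taken relative to its own control mean, among 8470 genes with a mean at or above the median. LAT2, an adaptor of immune receptor signalling, was nearest at a distance of 0.131, with log2 values of 9.83 and 9.89 against 11.95 and 12.09. MYL4, a myosin light chain, followed at 0.145. IGLL1, a part of the surrogate light chain of the pre-B cell receptor, lay at 0.288, CLEC17A, a lectin of germinal center B cells, at 0.297, and CD82, a tetraspanin, at 0.321. The ERK feedback genes were not among the candidates, and since these 5 were picked for their likeness their differences were not tested.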

How the data were processed

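RNA sequencing was performed on 4 NUDUL1 libraries, 2 labelled control and 2 labelled GNA13-deficient. Libraries were made with a stranded poly(A) kit, and the sources state 2 different read lengths. Reads were aligned to hg19 with STAR by the authors, and the submitters' processing notes name HTSeq. The method of normalization is not given in the sources used here. The authors deposited normalized reads as log2 values, beside an entry of library totals on a linear scale that was used only for depth. Reads were recovered from the log2 steps: of values up to 100 reads, 100% were whole within 0.05 reads. The floor was 3 reads.

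Genotypes were compared on the deposited log2 values with limma 3.58.1 in R 4.3.3 (lmFit, eBayes with a variance trend, 2 residual degrees of freedom) over 16945 genes above 0 in at least 2 libraries, with Benjamini-Hochberg adjustment and a threshold of 0.05. The pipeline was tested on simulated data. Exon lengths and positions were from GENCODE 44 mapped to GRCh37, and 1 listed gene was matched by Entrez number. Promoter windows were from RefSeq on GRCh38.p14.

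The ERK feedback genes and all lists were chosen with earlier results of these data known. The text names all of them, GNA13, the other MAP kinase phosphatases, Sprouty and SPRED genes, CIC, NF1, MAP2K1, MAP2K2, MAPK3 and ETV1, up to 2 rises and 2 falls per list that passed without overlap, and the 5 genes nearest to DUSP6. Some genes that the rule includes are not reported here. Cell type markers, DUSP5P, ATXN1L, EGR1 and LIF were named beside these. Alternatives were other filters, pseudocounts of 1 and 10, quantile normalization, median centring, a replicate block, no variance trend, a robust prior, voom on recovered reads, and leaving out each library.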

Additional observations from a re-analysis of the deposited data

How the results depend on the processing

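The number of genes called between genotypes was 5037, and it was 1999 without the filter and 2718 without the variance trend. Without any 1 library no gene was called by limma (0 to 0, with 5257 to 5600 genes at an unadjusted p under 0.05 and a smallest adjusted p of 0.0708 to 0.079), since 3 libraries leave 1 fewer degree of freedom. Of the other pathway genes, 15 were higher, against 5 without the filter, 28 with median centring and 5 without the trend, and 20 were lower, against 11 without the filter, 11 with a filter at the median of the means and 11 without the trend. Without any 1 library these were 0 to 0. With median centring the median over all genes was 0.18 and 69.1% of 6235 calls were higher, against 44.03%, and the filter on means made 54.6% higher.

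The median log2 difference of the ERK feedback genes was 1.07, the value of DUSP4, a gene at the floor. It was 1.56 with the filter on means, which left 3 of them, 1.55 with a pseudocount of 1 and 1.51 with voom. Each of these is the value of SPRED2. With a pseudocount of 10 it was 0.64, the value of SPRED1. Without each library it was 0.75 to 1.53. The former was SPRED1 without GNA13-deficient replicate 2, and the latter was SPRED2 without GNA13-deficient replicate 1. The median thus moved as the middle rank passed between genes. Among genes named by the rule, sign changed for DUSP10 with quantile normalization (0.0057), and for NF1 (0.12) and MAP2K2 (0.12) with median centring. Without each library, SPRED3 ranged from -0.60 (without control replicate 2) to 1.25 and NF1 from -0.20 to 0.034, above 0 without control replicate 2 (0.0075) or GNA13-deficient replicate 2. The causes were not tested.

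The replicates share only a number. The deviations of same-numbered libraries had a correlation of 0.453 over 8473 genes, and with the replicate number as a block 6616 genes were called (46.1% of them higher). Genes with a mean of at most 3 reads in both genotypes, DUSP4, SPRY2, SPRY4 and LIF among those named, were too shallow for a comparison.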
